A study of Mus musculus with 6 samples.

Results

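The acetylcholine receptor of skeletal muscle and the agrin-MuSK pathway that gathers it under the nerve terminal were followed through 10 genes, which were taken by symbol. These were the receptor subunit genes *Chrna1*, *Chrnb1*, *Chrnd*, *Chrne* and *Chrng*, and the pathway genes *Agrn*, *Lrp4*, *Musk*, *Dok7* and *Rapsn*. All 10 were found among the 24421 genes of the count tables, and all 10 were among the 14180 genes that passed the filter on low counts. The RNA-Seq libraries came from the gastrocnemius/plantaris (GP), a mixed calf muscle, of 6 male mice of the B6C3F1 background, 1 library for each mouse. Of these, 3 libraries were labelled Ctrl (Net39 fl/fl, Cre-) and 3 were labelled cKO (HSACreERT2;Net39 fl/fl). All mice were 5 months old, 3 months post-tamoxifen, and by their labels both groups carried the floxed alleles and differed in the presence of Cre. HSACreERT2 is a tamoxifen-inducible Cre driven by the human skeletal actin promoter, which is active in muscle fibers but not in Schwann cells, motor neurons or muscle stem cells. The floxed segment is the first exon of *Net39*, a gene of the nuclear envelope.

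The targeted gene, listed as *Ppapdc3*, went against the labels. It had 310, 321 and 217 counts under the Ctrl label and 5365, 4340 and 6080 counts under the cKO label, a log2 fold change of 4.22 (SE 0.17, edgeR quasi-likelihood adjusted p = 0.000161). Which libraries came from mice with the deletion therefore cannot be settled from the labels, and the labels may be exchanged, in which case every direction and sign given here would turn. Directions are given for the labels as they stand, and a fold change is always labelled cKO over labelled Ctrl. The depth was 33860001 to 38201728 counts under the Ctrl label and 39191239 to 48839910 counts under the cKO label.

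At the neuromuscular junction, acetylcholine from the motor nerve opens a receptor built of 5 subunits. The α1 subunits carry most of the acetylcholine-binding surface, the β1 and δ subunits complete the ring, and the remaining position is filled by the γ subunit in fetal or denervated muscle and by the ε subunit in innervated adult muscle. Agrin, released by the nerve, binds LRP4 on the fiber, LRP4 activates the receptor tyrosine kinase MuSK, the adaptor Dok7 sustains MuSK activity, and rapsyn anchors the receptors in dense clusters. In adult muscle the nuclei beneath the synapse transcribe most of these genes, while electrical activity represses the subunit genes elsewhere in the fiber. Promoters of the family are known for E-boxes, sites for myogenic regulators such as myogenin, and for the N-box, a site for ETS factors such as GABP.

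Promoter windows from RefSeq (GRCm38.p6) were matched for 7 of the 10 genes. *Chrnd*, *Lrp4* and *Rapsn* are named only. The 250 bases before the RefSeq start are shown for the 4 matched subunit genes and for *Musk*, so that the motif letters they share can be read beside their counts, which follow. Each runs 5′ to 3′ on the strand of the gene, and capitals mark matches to the E-box (CANNTG) or the N-box (CCGGAA) on either strand. The windows are chr2:73580339-73580588 (minus strand) for *Chrna1*, chr11:69795938-69796187 (minus) for *Chrnb1*, chr11:70619195-70619444 (minus) for *Chrne*, chr1:87205561-87205810 (plus) for *Chrng* and chr4:58285712-58285961 (plus) for *Musk*.
Chrna1: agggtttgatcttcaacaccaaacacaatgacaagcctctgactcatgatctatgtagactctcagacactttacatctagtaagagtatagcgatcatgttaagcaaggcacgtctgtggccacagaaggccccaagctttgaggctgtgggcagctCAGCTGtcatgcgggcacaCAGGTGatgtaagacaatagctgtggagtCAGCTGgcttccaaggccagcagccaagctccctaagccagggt
Chrnb1: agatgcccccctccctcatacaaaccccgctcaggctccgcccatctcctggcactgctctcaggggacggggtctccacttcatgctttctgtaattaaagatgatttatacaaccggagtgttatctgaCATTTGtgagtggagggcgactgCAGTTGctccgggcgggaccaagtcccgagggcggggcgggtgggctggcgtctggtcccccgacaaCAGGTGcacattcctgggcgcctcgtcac
Chrne: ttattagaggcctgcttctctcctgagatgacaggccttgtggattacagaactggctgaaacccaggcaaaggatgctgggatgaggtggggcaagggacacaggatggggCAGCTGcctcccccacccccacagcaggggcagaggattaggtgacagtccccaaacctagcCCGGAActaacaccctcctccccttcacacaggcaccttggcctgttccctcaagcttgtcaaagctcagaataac
Chrng: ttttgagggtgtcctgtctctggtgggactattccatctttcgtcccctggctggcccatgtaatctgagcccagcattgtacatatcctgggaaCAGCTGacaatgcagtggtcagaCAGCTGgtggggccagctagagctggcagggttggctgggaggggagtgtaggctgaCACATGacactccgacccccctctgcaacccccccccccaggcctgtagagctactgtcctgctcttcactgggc
Musk: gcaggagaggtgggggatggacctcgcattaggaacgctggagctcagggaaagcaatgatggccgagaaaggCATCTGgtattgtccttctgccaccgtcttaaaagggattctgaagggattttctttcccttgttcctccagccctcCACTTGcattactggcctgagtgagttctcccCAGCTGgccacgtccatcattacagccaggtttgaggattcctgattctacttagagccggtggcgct

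The start used for *Chrna1* was also the gene start in GENCODE M21, while the other 4 started at another base there. For *Chrng* the GENCODE gene starts at 87204657, before the window, so the bases shown for it lie within that gene span. Motifs were searched in the whole windows of 300 bases, which include 50 bases after the start. There were 9 member windows, since *Agrn* and *Dok7* have a pair each. An E-box was present in 7 of 9, against 72.3% of all 32851 windows of this length. The narrower E-box core CAGCTG, every match of which is also an E-box, was present in 4 of 9 (*Chrna1*, *Chrne*, *Chrng* and *Musk*) against 16.3% of all windows. The N-box was present in 1 of 9, that of *Chrne*, against 14.9% of all windows. The MEF2 motif was present in 0 of 9 and in 0.557% of all windows. These are matches of letters and not measured binding sites.

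Of the 10 genes, 4 were higher in the libraries labelled Ctrl (*Chrnb1*, *Chrnd*, *Agrn* and *Lrp4*), 1 was higher in the libraries labelled cKO (*Rapsn*) and 5 did not pass (*Chrna1*, *Chrne*, *Chrng*, *Musk* and *Dok7*), by edgeR's quasi-likelihood test at an adjusted p under 0.05 over all genes tested. Over all genes tested, 11.8% passed higher in labelled Ctrl and 12.6% passed higher in labelled cKO. With a fold change over 2 required as well, 1 member remained higher in labelled Ctrl, *Chrnd*, and 0 in labelled cKO, against 3.92% and 2.13% of all genes tested. No fit with another setting, DESeq2 included, gave a member over 2-fold higher in labelled cKO. There was no overlap between labels for 5 members higher in labelled Ctrl, the 4 above and *Chrna1*, and for 1 higher in labelled cKO, *Rapsn*. Such a separation was found in 21.9% and 22.0% of all genes tested, respectively. The median log2 fold change was -0.42 over the members and -0.0155 over all genes tested. In bulk muscle, fewer cells of a type and less RNA per cell cannot be told apart, and the nuclei beneath the synapse are a small part of the tissue.

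**Figure D1:**
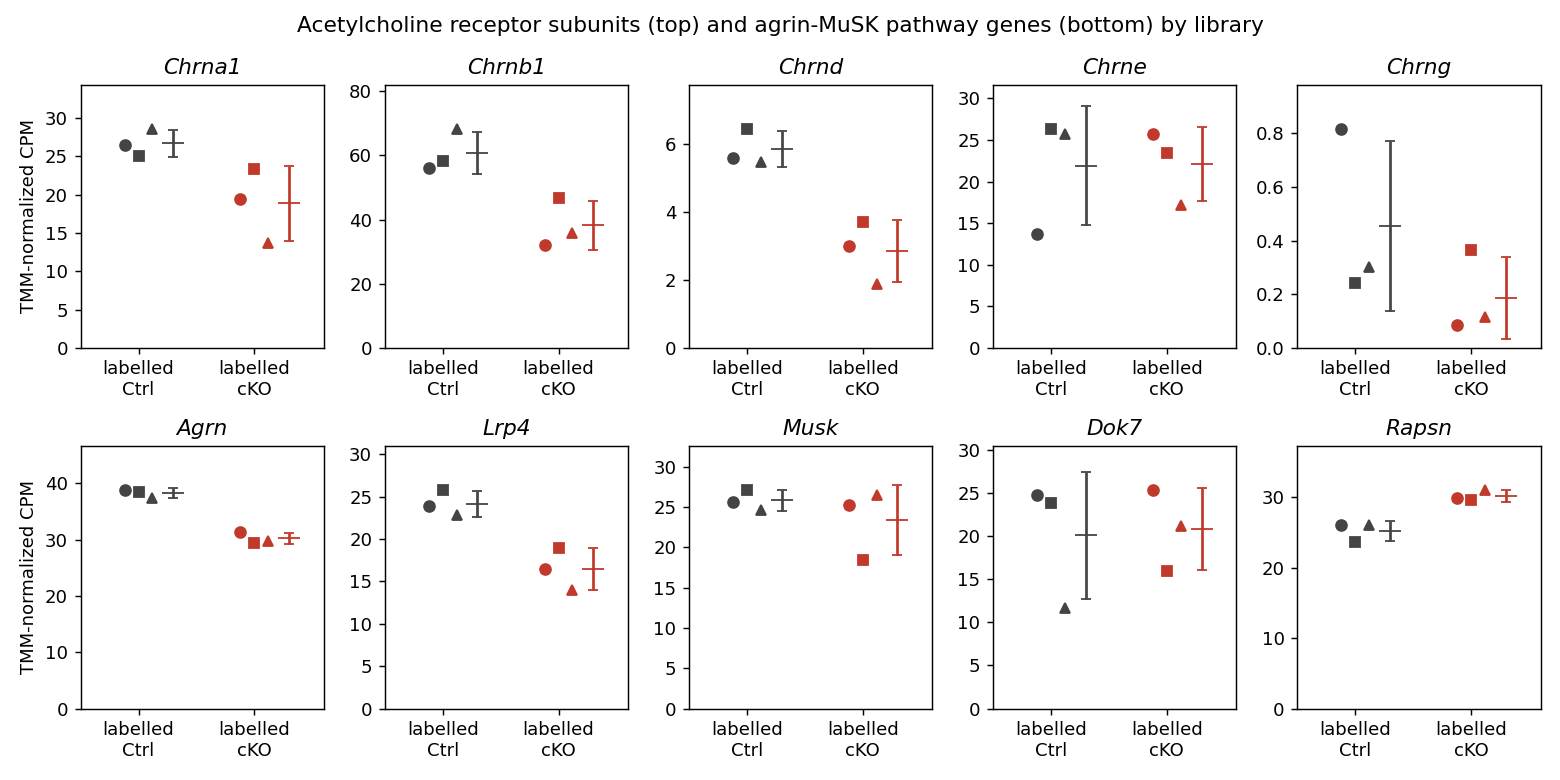
Normalized level of each gene in each library, in CPM (counts relative to library size, scaled by TMM factors, the trimmed mean of M values), with a separate vertical axis from 0 for each gene. Symbols mark replicates 1 (circle), 2 (square) and 3 (triangle), and the bar beside them is the mean ± SD (n = 3). The groups are apart for *Chrna1*, *Chrnb1*, *Chrnd*, *Agrn*, *Lrp4* and *Rapsn* and overlap for the other 4 genes.

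Among the receptor subunits, the β1 and δ subunit genes passed and the α1, ε and γ genes did not. Levels are given in replicates 1, 2 and 3 of each label as CPM, as in the plot by library. *Chrnb1*, on chromosome 11 (GRCm38 69784036 to 69795943, minus strand), stood at 56.1, 58.2 and 68.3 CPM under the Ctrl label and at 32.1, 46.7 and 35.8 CPM under the cKO label. Every Ctrl-labelled library was above every cKO-labelled one, with the closest pair being labelled cKO replicate 2 and labelled Ctrl replicate 1. This gave a log2 fold change of -0.67 (SE 0.15, adjusted p = 0.0197). *Chrnd*, on chromosome 1 (87190607 to 87200070, plus strand), stood at 5.59, 6.44 and 5.47 CPM under the Ctrl label and at 2.99, 3.69 and 1.89 CPM under the cKO label. The groups did not overlap, and the lowest value was that of labelled cKO replicate 3. Its log2 fold change of -1.04 (SE 0.24, adjusted p = 0.0225) was the largest in size among the 5 members that passed.

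*Chrna1*, the α1 gene, did not pass the test, though its groups were apart. On chromosome 2 (73563215 to 73580338, minus strand), it stood at 26.4, 25.1 and 28.6 CPM under the Ctrl label and at 19.4, 23.4 and 13.7 CPM under the cKO label. The cKO-labelled values ranged widely, from replicate 2 close to the Ctrl-labelled libraries to replicate 3 well below. On the log2 scale the change was -0.50 (SE 0.18, adjusted p = 0.0865). It was -0.33 without labelled cKO replicate 3. Without labelled cKO replicate 2 the adjusted p was 0.0242, and *Chrna1* did not pass in any of the other 5 fits that left out a library.

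The ε subunit gene of the adult receptor had nearly the same mean in both groups. *Chrne*, on chromosome 11 (70614883 to 70619216, minus strand), stood at 13.6, 26.4 and 25.7 CPM under the Ctrl label and at 25.8, 23.4 and 17.2 CPM under the cKO label. Labelled Ctrl replicate 1 was the lowest of all 6 libraries, and the ranges overlapped. The log2 fold change was 0.01 (SE 0.26, adjusted p = 0.979), with a 95% interval from -0.61 to 0.63, which leaves room for a change of either sign. Without labelled Ctrl replicate 1 it was -0.24, and it did not pass in any fit.

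The γ subunit gene of the fetal receptor was near the limit of counting. *Chrng* lies 4586 bases beyond *Chrnd* on the same strand of chromosome 1 (87204657 to 87212694). It had 32, 10 and 11 counts under the Ctrl label and 3, 14 and 5 counts under the cKO label, which is 0.817, 0.241 and 0.301 CPM against 0.0847, 0.364 and 0.114 CPM. Labelled Ctrl replicate 1 was the highest library and the groups overlapped. This gave a log2 fold change of -1.26 (SE 0.69, adjusted p = 0.217), with an interval from -2.87 to 0.35. It was -0.52 without labelled Ctrl replicate 1 and -2.16 without labelled cKO replicate 2.

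The share of γ in the counts of γ and ε together, a mark of the fetal as against the adult receptor, was low in each library. It was 5.65% (exact Clopper-Pearson 95% interval 3.90 to 7.89), 0.907% and 1.16% in the libraries labelled Ctrl. In the libraries labelled cKO it was 0.328% (interval 0.0676 to 0.954), 1.53% and 0.657%. Labelled Ctrl replicate 1 stood apart, with both the most *Chrng* and the least *Chrne*. The intervals cover counting error only and the shares are not corrected for transcript length. As a log2 ratio of *Chrng* to *Chrne*, the groups differed by -1.33 (SE 1.03), which did not exceed the spread (exact two-sided permutation p = 0.3). Without labelled Ctrl replicate 1 the difference was -0.50. The smallest p that 3 libraries against 3 allow is 0.1.

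Along the agrin-MuSK pathway, the ligand and its binding receptor were higher in labelled Ctrl, the kinase and its adaptor did not pass, and the clustering protein was higher in labelled cKO with TMM factors but not with total counts. *Agrn*, on chromosome 4 (156165290 to 156197488, minus strand), stood at 38.9, 38.6 and 37.3 CPM under the Ctrl label and at 31.3, 29.5 and 29.9 CPM under the cKO label. The 3 values of each label lay close together, and the groups did not overlap. On the log2 scale the change was -0.34 (SE 0.066, adjusted p = 0.0124). Counts per gene do not separate the neural splice form of agrin, which clusters receptors, from the forms made by muscle and other cells.

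*Lrp4*, on chromosome 2 (91457511 to 91513779, plus strand), stood at 23.9, 25.8 and 22.8 CPM under the Ctrl label and at 16.4, 18.9 and 14.0 CPM under the cKO label. All values labelled Ctrl were above all values labelled cKO. The log2 fold change was -0.56 (SE 0.12, adjusted p = 0.0195).

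*Musk*, on chromosome 4 (58285960 to 58374303, plus strand), stood at 25.7, 27.2 and 24.7 CPM under the Ctrl label and at 25.3, 18.5 and 26.5 CPM under the cKO label. Only labelled cKO replicate 2 lay below the Ctrl-labelled range. This gave a log2 fold change of -0.14 (SE 0.14, adjusted p = 0.492, interval -0.47 to 0.19), which was -0.012 without labelled cKO replicate 2 and -0.26 without labelled cKO replicate 3. *Dok7*, on chromosome 5 (35056766 to 35087839, plus strand), stood at 24.7, 23.9 and 11.6 CPM under the Ctrl label and at 25.4, 16.0 and 21.2 CPM under the cKO label. Its lowest value was in labelled Ctrl replicate 3 and the groups overlapped. On the log2 scale the change was 0.05 (SE 0.30, adjusted p = 0.914, interval -0.64 to 0.75), and it was -0.22 without labelled Ctrl replicate 3.

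*Rapsn*, on chromosome 2 (91035620 to 91045729, plus strand), encodes the protein that anchors the receptor. It stood at 26.1, 23.6 and 26.0 CPM under the Ctrl label and at 29.8, 29.6 and 31.1 CPM under the cKO label. Every cKO-labelled library was above every Ctrl-labelled one by a small margin. The log2 fold change was 0.26 (SE 0.075, adjusted p = 0.0460). This call held in none of the 6 fits that left out a library, with adjusted p from 0.0564 to 0.173, and was lost without the filter on low counts (adjusted p = 0.0593). Of the members, *Rapsn* alone shares exon bases with another gene in GENCODE M21, 0.222% of its exon length.

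The scaling of the libraries bears on these directions. When total counts replaced TMM factors, the median over all genes went from a log2 fold change of -0.0155 to -0.27, and 6 members passed higher in labelled Ctrl, where 28.7% of all genes now passed. *Chrna1* (log2 fold change -0.75, adjusted p = 0.0312) and *Musk* (-0.41, adjusted p = 0.0355) joined *Chrnb1*, *Chrnd*, *Agrn* and *Lrp4*. *Rapsn* had a log2 fold change of 0.0016 (adjusted p = 0.990), which was 0.27 above the median of all genes, as under TMM. *Chrne* and *Dok7* turned to -0.24 and -0.22. Of all genes tested, 4074 passed higher in labelled Ctrl and 673 higher in labelled cKO with total counts, against 1668 and 1786 with TMM factors.

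**Figure D2:**
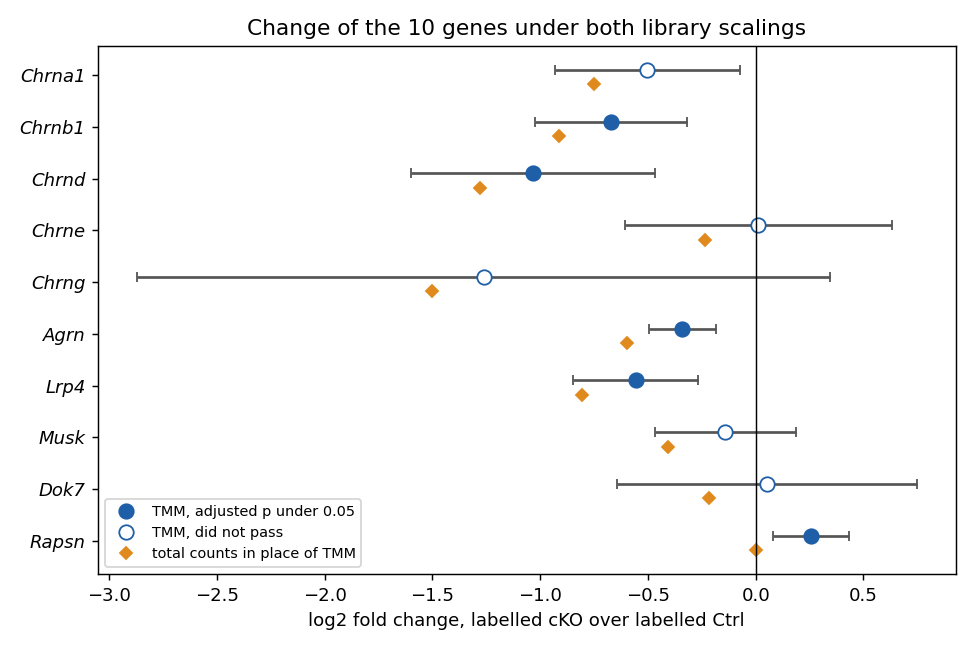
Log2 fold change of each gene, labelled cKO over labelled Ctrl, with TMM factors (circles, filled where the adjusted p was under 0.05, with 95% intervals) and with total counts (diamonds). The diamonds lie to the left of the circles for all 10 genes, and *Rapsn* moves from 0.26 to 0.0016.

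Leaving out 1 library at a time kept the direction of the 5 members that passed and changed the calls of each. *Chrnb1* was lost without labelled Ctrl replicate 2, labelled cKO replicate 1 or labelled cKO replicate 3, with an adjusted p of at most 0.0682. *Chrnd* was lost without labelled Ctrl replicate 1 or 2 or labelled cKO replicate 1, with at most 0.0740. *Agrn* was lost without labelled Ctrl replicate 1 or labelled cKO replicate 3, with at most 0.0548. *Lrp4* was lost without labelled Ctrl replicate 1 or 2 or labelled cKO replicate 1 or 3, with at most 0.0678. Over all genes tested, the share that passed higher in labelled Ctrl was 5.46% to 6.57% in the 4 fits without labelled Ctrl replicate 1 or 2 or labelled cKO replicate 1 or 3, in each of which 1 member passed. It was 10.6% without labelled Ctrl replicate 3, with 4 members, and 12.5% without labelled cKO replicate 2, with 5 members.

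Ratios within a library do not depend on the scaling, and were used to ask whether the members differed in their changes. Each other member was set against *Chrna1*, the gene of the subunit common to fetal and adult receptors. The *Chrnd* count was 21.2%, 25.7% and 19.1% of the *Chrna1* count under the Ctrl label and 15.4%, 15.8% and 13.8% under the cKO label. The groups did not overlap, and the log2 ratio differed by -0.54 (SE 0.14, exact two-sided permutation p = 0.1, adjusted p = 0.5 over 10 ratios). The *Rapsn* count was 98.7%, 94.1% and 91.1% of the *Chrna1* count under the Ctrl label and 154%, 126% and 227% under the cKO label. These did not overlap either, with a difference of 0.79 (SE 0.25, exact permutation p = 0.1, adjusted p = 0.5). The *Chrne* to *Chrna1* ratio differed by 0.59 (SE 0.34, exact permutation p = 0.2) and its groups overlapped. Without labelled Ctrl replicate 1 that difference was 0.28. The ratios of the other members to *Chrna1* differed by 0.64 for *Dok7*, -0.74 for *Chrng*, 0.38 for *Musk*, 0.19 for *Agrn*, -0.15 for *Chrnb1* and -0.03 for *Lrp4*, with overlapping groups and exact permutation p from 0.3 to 0.9. Single libraries weighed on the *Dok7*, *Chrng* and *Musk* ratios. In labelled Ctrl replicates 1, 2 and 3, *Dok7* was at 93.6%, 95.4% and 40.7% of *Chrna1*, and *Chrng* at 3.1%, 0.963% and 1.05%. In labelled cKO replicates 1, 2 and 3, *Musk* was at 130%, 79.0% and 193.5%. With 3 libraries in a group, no ratio could reach an exact p under 0.05.

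**Figure D3:**
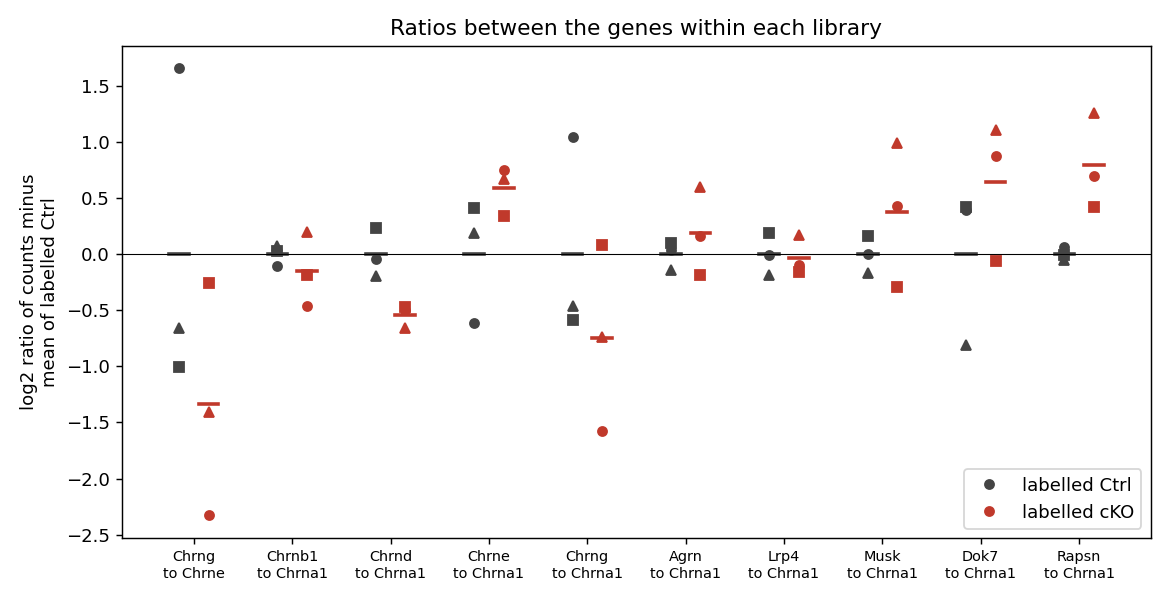
Log2 ratio of counts between the genes within each library, less the mean of the libraries labelled Ctrl. Symbols mark replicates 1 to 3 of each label and lines mark group means. The *Chrnd* to *Chrna1* and *Rapsn* to *Chrna1* ratios separate the labels, by -0.54 and 0.79, and the 8 other ratios overlap.

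Per kilobase of annotated exon (GENCODE M21), the levels of the 10 genes spanned a wide range. In the libraries labelled Ctrl the order ran from *Chrnb1* at 24.1 ± 2.6 CPM per kb (SD, n = 3) through *Rapsn* at 14.0, *Chrne* at 13.0, *Musk* at 6.85, *Chrna1* at 6.08, *Dok7* at 4.70, *Agrn* at 4.12, *Lrp4* at 2.30 and *Chrnd* at 1.78 to *Chrng* at 0.109. *Rapsn* and *Chrne*, *Chrna1* and *Dok7*, and *Dok7* and *Agrn* had overlapping ranges, so their order is not settled. In the libraries labelled cKO, *Rapsn* at 16.7 ± 0.45 stood above *Chrnb1* at 15.1 ± 3.0 and *Chrne* at 13.1, with overlapping ranges between neighbours. *Musk* at 6.21, *Dok7* at 4.88, *Chrna1* at 4.29 and *Agrn* at 3.26 overlapped each with the next, and *Lrp4* at 1.57, *Chrnd* at 0.868 and *Chrng* at 0.0450 followed apart. *Dok7* is sensitive to the length used. With its longest transcript it stood at 7.23 CPM per kb in the libraries labelled Ctrl, above *Chrna1*.

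**Figure D4:**
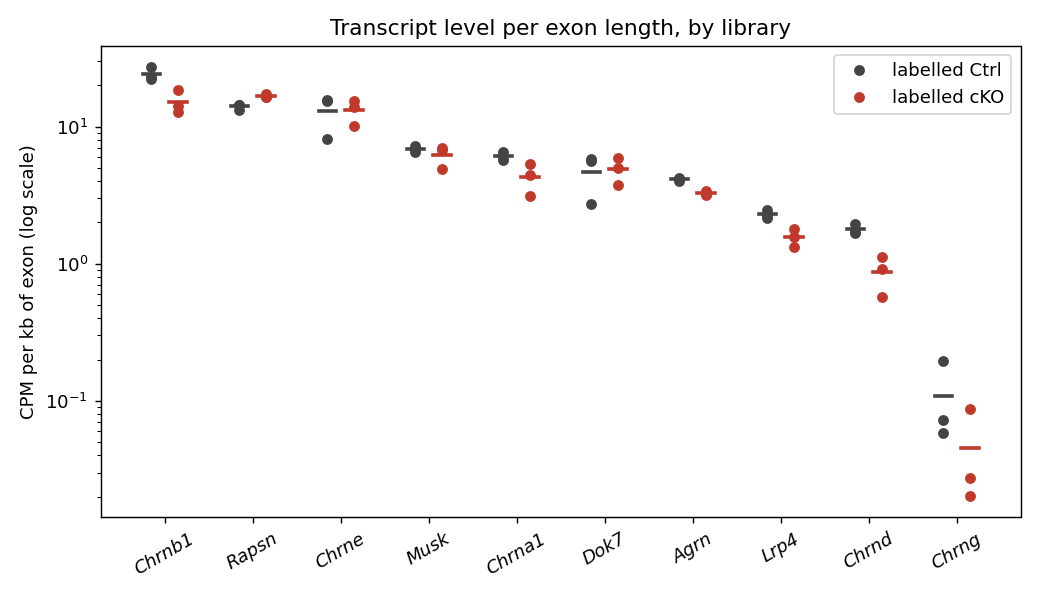
Level of each gene per kilobase of annotated exon on a log scale, with 1 point for each library and a line at the group mean, ordered by the mean of the libraries labelled Ctrl. *Chrnb1*, *Rapsn* and *Chrne* are at the top and *Chrng* at 0.109 and 0.0450 CPM per kb is at the bottom.

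Expression profiles over the 6 libraries were compared by the root mean square difference of log2 CPM centred on each gene's mean, for the 3 members with the smallest p, against 12353 genes with a mean of at least 1 CPM. The nearest to *Agrn* were *Ppp6r1* (0.0207), *Esyt1* (0.0283) and *Xpo6* (0.0301). The nearest to *Lrp4* were *Rabl3* (0.0489), *Idnk* and *Slc16a6*, and the nearest to *Chrnb1* were *Folr2* (0.0486), *Arfgap3* and *Cotl1*. None of these is a member. The member closest to *Agrn* was *Musk*, at 0.178 and rank 2906. The member closest to *Lrp4* was *Chrna1*, at 0.148 and rank 358, and the member closest to *Chrnb1* was *Lrp4*, at 0.187 and rank 445. *Chrne*, *Dok7* and *Rapsn* were far from *Lrp4* in this measure, at 0.449, 0.542 and 0.447.

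Beyond the members, 82 genes of the junction were listed, of which 73 were tested. Of these, 12 passed higher in labelled Ctrl, 9 passed higher in labelled cKO and 52 did not pass, with a median log2 fold change of 0.01. These counts are close to the background of 11.8% and 12.6% of all genes tested. Scaled by total counts, 26 and 4 passed, where 28.7% and 4.75% of all genes did. Calls that held when each library was left out in turn numbered 10 of 21: *Cttn*, *Fyn*, *Macf1*, *Prss12*, *Sntb1*, *Scn4a*, *Myog*, *Ncam1*, *Runx1* and *Fgfbp1*. The other 11 were *Crk*, *Abl1*, *Rhoa*, *Erbb2*, *Col13a1*, *Lamb2*, *Col4a4*, *Utrn*, *Syne1*, *Ank3* and *Gfpt1*. Of these, 9, 10 and 3 were lost without labelled Ctrl replicates 1, 2 and 3, and 7, 5 and 10 without labelled cKO replicates 1, 2 and 3. Under total counts, 5 of the 9 genes higher in labelled cKO no longer passed (*Crk*, *Abl1*, *Col13a1*, *Col4a4* and *Gfpt1*).

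In the relay below MuSK, 4 of 22 genes were higher in labelled Ctrl and 2 were higher in labelled cKO, against 11.8% and 12.6% of all genes tested. *Macf1*, whose product links microtubules to the receptor clusters, had a log2 fold change of -0.78 (adjusted p = 0.00285) and *Fyn*, a Src-family kinase, had -0.62 (0.0106). *Cttn*, the actin regulator cortactin, had -0.43 (0.0124), and the small GTPase gene *Rhoa* had -0.36 (0.0182). The adaptor gene *Crk*, whose product binds phosphorylated Dok7, had 0.25 (0.0337) and the kinase gene *Abl1* had 0.36 (0.0118). *Dvl1*, *Rac1* and *Ctnnb1*, the most abundant of those that did not pass, had -0.0022, 0.23 and 0.17. Exon bases are shared with other genes for 51.4% of *Rac1*, 15.1% of *Ctnnb1*, 4.75% of *Rhoa*, 0.811% of *Abl1* and 0.721% of *Dvl1*.

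Among genes of synaptic transcription, 1 of 6 passed, near the 11.8% of all genes tested that passed higher in labelled Ctrl. It was *Erbb2*, a neuregulin co-receptor, with a log2 fold change of -0.50 (adjusted p = 0.0318). The genes of GABP, the factor that binds the N-box, did not pass, with 0.02 for *Gabpa* and -0.13 for *Gabpb1*, and the ETS gene *Etv5* had -0.35 (adjusted p = 0.0824). Of 4 other nicotinic subunits tested, 0 passed by edgeR with no replicate block, 1 had an unadjusted p under 0.05 and 1 passed by DESeq2, by which 10.96% of all genes passed higher in labelled cKO. *Chrna10*, which shares 39.0% of its exon bases with *Art1*, was at 13.8 and 13.0 CPM, and *Chrna2* was at 0.386 and 1.34 CPM with an adjusted p of 0.0983. Its log2 fold change of 1.77 was 0.88 without labelled cKO replicate 2. *Chrnb2*, which shares 16.3% of its exon bases with *Adar*, had -0.84, with -0.40 without labelled Ctrl replicate 2 and -1.56 without labelled cKO replicate 1.

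In the synaptic cleft and its basal lamina, 2 of 16 genes were higher in labelled Ctrl and 2 were higher in labelled cKO, near the background of 11.8% and 12.6%. *Prss12* encodes neurotrypsin, the protease that cleaves agrin. It stood at 1.94, 2.85 and 1.64 CPM under the Ctrl label and at 0.818, 0.519 and 0.614 CPM under the cKO label, without overlap. This gave a log2 fold change of -1.72 (SE 0.29, adjusted p = 0.00847). *Lamb2*, the laminin chain of the synaptic basal lamina, had -0.47 (0.0134). *Col13a1*, a transmembrane collagen that stabilizes receptor clusters, had 0.74 (0.0365) and *Col4a4* had 0.72 (0.0380). *Hspg2*, *Nid1* and *Lama5* did not pass, with -0.19, -0.17 and 0.27. That of *Lama5* ranged from 0.11 to 0.38 in the fits without 1 library.

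Of 10 scaffold and channel genes, 2 were higher in labelled Ctrl and 3 in labelled cKO, where 11.8% and 12.6% of all genes passed. *Utrn*, the synaptic relative of dystrophin, had a log2 fold change of -0.27 (adjusted p = 0.0443) and *Ank3*, an ankyrin, had -0.51 (0.0498). *Sntb1*, a syntrophin, had 0.91 (0.00497), *Scn4a*, the muscle sodium channel, had 0.60 (0.0126), and *Syne1*, which anchors nuclei beneath the synapse, had 0.61 (0.0140). *Plec* and *Dag1* did not pass, with 0.01 and -0.22. Of 5 glycosylation enzymes whose loss causes congenital myasthenia, *Gfpt1* passed with 0.53 (0.0236), and *Dpagt1*, *Alg2* and *Alg14* did not pass by edgeR, with -0.16, 0.76 and -0.26. Without 1 library these ranged from -0.22 to -0.071, from 0.51 to 1.06 and from -0.34 to -0.15. *Alg2* passed by DESeq2 (adjusted p = 0.0223), by which 10.96% of all genes passed higher in labelled cKO.

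Of 10 genes that respond to denervation, 3 were higher in labelled Ctrl and 1 was higher in labelled cKO, all over 2-fold. Over all genes tested, 3.92% and 2.13% passed over 2-fold in these directions. *Myog*, the gene of myogenin, a regulator of receptor subunit genes through E-boxes, stood at 19.6, 22.1 and 20.8 CPM under the Ctrl label and at 6.07, 5.09 and 5.73 CPM under the cKO label. On the log2 scale the change was -1.89 (SE 0.10, adjusted p = 0.00055). *Ncam1*, a cell adhesion gene that spreads along denervated fibers, stood at 28.7, 43.8 and 45.3 CPM against 7.98 to 11.2 CPM (log2 fold change -1.97, adjusted p = 0.00253). *Runx1*, which is induced by denervation, had -1.57 (0.0066). *Fgfbp1*, a binding protein for fibroblast growth factors, had 0.868, 0.314 and 0.438 CPM against 5.25, 4.10 and 5.23 CPM, a log2 fold change of 3.17 (SE 0.34, adjusted p = 0.00269). *Myod1*, *Hdac4* and *Gadd45a* did not pass by edgeR, with 0.87, -0.10 and 0.04. The log2 fold change of *Myod1* ranged from 0.55 to 1.11 without 1 library. It passed by DESeq2 (adjusted p = 0.0157), by which 10.96% of all genes passed higher in labelled cKO. Exon bases shared with other genes made up 22.4% of *Hdac4*, 19.1% of *Gadd45a* and 4.81% of *Ncam1*, as they did 6.03% of *Prss12* and 6.98% of *Gabpa*.

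**Figure D5:**
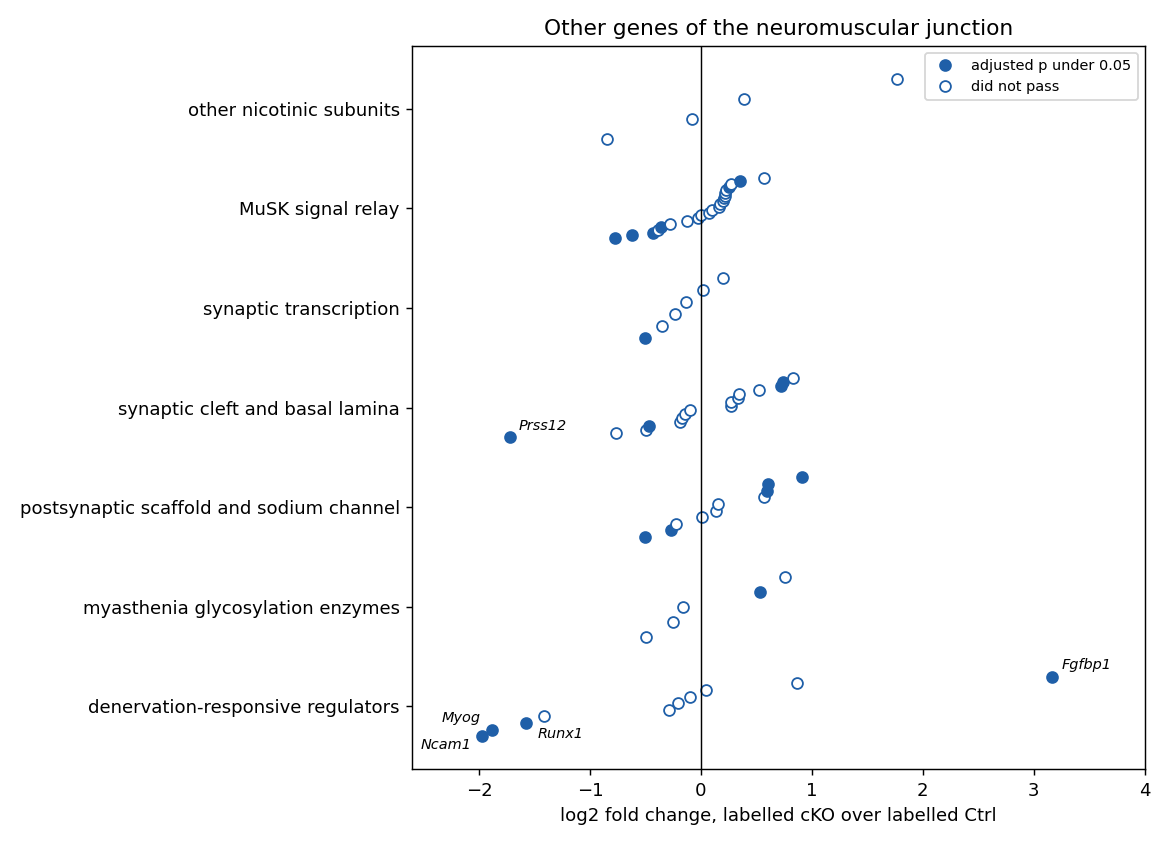
Log2 fold change, labelled cKO over labelled Ctrl, of the 73 other junction genes tested, grouped by list. Filled points passed at an adjusted p under 0.05, and genes past 2-fold as well are named. *Myog*, *Ncam1*, *Runx1* and *Prss12* lie at -1.57 or lower and *Fgfbp1* at 3.17.

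Fiber types and other cells also differed between the labels, and their part in the members' values was not tested. By edgeR, 11.8% of all genes tested passed higher in labelled Ctrl and 12.6% higher in labelled cKO. By DESeq2 these shares were 9.63% and 10.96%. A count of 1 gene passing in a list of 4 is near these shares. The share of all genes with an unadjusted p under 0.05 is not given. The 6 slow fiber markers summed to 7399 to 12300 CPM under the Ctrl label and to 287 to 2869 CPM under the cKO label, without overlap for any of the 6. Of these 3 passed by edgeR, 6 had an unadjusted p under 0.05, 6 passed by DESeq2, and the Ctrl-labelled level was 4.94-fold to 6.73-fold higher. The log2 fold change of *Myh7*, -2.30 with all libraries, and that of *Atp2a2*, -2.75, were -3.18 and -3.49 without labelled cKO replicate 2, and across the fits without 1 library they ranged up to -1.81 and -2.30. The 5 markers of fast type IIb fibers summed to 26960 to 57210 CPM and 88930 to 123900 CPM, with 5 of 5 passing higher in labelled cKO. Of the markers of developing fibers 3 were tested, and 2 passed higher in labelled Ctrl and 1 higher in labelled cKO, with sums of 208 to 263 CPM and 90.5 to 144 CPM. *Myog*, 1 of the 2 higher in labelled Ctrl, is also counted above among the genes that respond to denervation. Among the markers of developing fibers, the embryonic myosin gene *Myh3* stood at 159, 202 and 171 CPM in the libraries labelled Ctrl against 6.21, 21.5 and 9.68 CPM. The myosin gene *Myh8* went the other way, at 28.24, 39.57 and 61.26 CPM against 78.14, 90.34 and 128.5 CPM (edgeR adjusted p = 0.0275). The myosin genes of this list therefore did not share a direction. *Myh7*, the slow myosin, stood at 3676, 1723 and 2219 CPM against 494, 974 and 75.3 CPM. Schwann cell markers, from the cells that cap the nerve terminal and wrap the axon, summed to 89.9 to 141 CPM and 47.7 to 90.7 CPM, with 0 of 6 passing by edgeR, 2 with an unadjusted p under 0.05 and 1 passing by DESeq2. Immune markers summed to 20.9 to 30.2 CPM and 9.03 to 16.7 CPM, with 2 of 4 passing higher in labelled Ctrl by edgeR and 4 of 4 by DESeq2, and satellite cell markers to 19.3 to 20.4 CPM and 24.4 to 30.5 CPM, with 1 of 4 passing higher in labelled cKO. Endothelial markers summed to 314 to 329 CPM and 288 to 323 CPM, with 0 of 4 passing by edgeR, 0 with an unadjusted p under 0.05 and 0 passing by DESeq2. Fibro-adipogenic markers summed to 587 to 621 CPM and 510 to 681 CPM, with 1 of 4 passing higher in labelled Ctrl. Motor neuron markers summed to 0.919 to 1.48 CPM and 1.07 to 1.92 CPM, and the defining markers *Chat* and *Mnx1* had 0 counts in all 6 libraries. Of 3 motor neuron markers tested, 0 passed by edgeR, 0 had an unadjusted p under 0.05 and 0 passed by DESeq2. The general muscle fiber markers summed to 63410 to 69970 CPM and 79550 to 108700 CPM, so the labelled tissue was plain in every library. Of these markers 4 of 6 passed higher in labelled cKO. Among these 4 is *Actn3* (log2 fold change 1.58), which is also counted among the fast type IIb markers.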

How the data were processed

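RNA-Seq libraries were made from total RNA of GP muscle with a KAPA mRNA kit, 1 for each mouse. Per the labels and methods, the authors trimmed reads with Trimmomatic 0.39 after FastQC 0.11.8, aligned them to mm10 with HISAT2 2.1.0 and deposited raw counts per gene from featureCounts 1.6.2. The annotation and the use of strand in counting are not given in the sources used here, so overlapping genes cannot be told apart. Samples were grouped by the genotype in the labels, and p-values measure the spread between mice. Here, genes were filtered with filterByExpr, scaled by TMM and tested with edgeR 4.0.16 (glmQLFit and glmQLFTest, R 4.3.3) with Benjamini-Hochberg adjustment over all genes tested. SEs were the log2 fold change over the root of F. Ratios used counts + 0.5 and an exact permutation test. The alternatives were scaling by DESeq2 size factors or by total counts, filtering at 10 counts in each library or not at all, the DESeq2 1.42.0 Wald test, a replicate block, a robust fit, other pseudocounts and leaving out each library. The fit was tested on simulated data, where the number of changed genes recovered was above the preset minimum with the random seed used and just below it with the other seed tried. Exon lengths and positions came from GENCODE M21 (GRCm38).

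The members, gene lists and marker lists were chosen with earlier results of these data known. All members were named, with each listed gene past an adjusted p of 0.05, up to 3 per list of those that did not pass with the highest mean CPM, and the 3 nearest profiles of the 3 members with the smallest p. Of the genes this rule names, 1 is not reported here.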

Additional observations from a re-analysis of the deposited data

How the results depend on the processing

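Of the 10 members, 4 were higher in labelled Ctrl with all libraries, and 1 to 5 when 1 library was left out, while the share over all genes tested went from 11.8% to between 5.46% and 12.5%. The 1 member higher in labelled cKO, *Rapsn*, fell to 0 with total counts, with no filter, with the replicate block and in each fit without 1 library (0 to 0). *Chrnd*, the 1 member over 2-fold, gave 0 to 1 in the fits without 1 library. The other junction genes numbered 12 higher in labelled Ctrl (26 with total counts, 7 to 15 without 1 library) and 9 higher in labelled cKO (4 with total counts, 15 with the DESeq2 Wald test, 5 with the replicate block, 4 to 11 without 1 library). Over all genes the shares higher in labelled Ctrl and in labelled cKO were 28.7% and 4.75% with total counts, 9.63% and 10.96% with the DESeq2 Wald test, 6.86% and 6.54% with the replicate block, and between 5.33% and 12.5% without 1 library.

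With total counts the log2 fold change turned for *Chrne* (-0.24), *Dok7* (-0.22), *Crk* (-0.0019), *Rac1* (-0.030), *Ctnnb1* (-0.084), *Gabpa* (-0.23), *Plec* (-0.24) and *Gadd45a* (-0.22), and *Dvl1* turned to 0.0065 with DESeq2 size factors, 0.0092 with no filter and 0.012 with the DESeq2 Wald test. Total counts lower the log2 fold changes of all genes together by construction. The cause of the other turns was not tested. Without 1 library the log2 fold change ranged from -0.24 to 0.17 for *Chrne*, from -0.22 to 0.23 for *Dok7*, from -0.17 to 0.048 for *Chrna10*, from -0.093 to 0.020 for *Dvl1*, from -0.072 to 0.084 for *Gabpa*, from -0.037 to 0.036 for *Plec*, from -0.17 to 0.011 for *Hdac4* and from -0.11 to 0.15 for *Gadd45a*. The log2 ratio to *Chrna1* ranged from -0.32 to 0.0051 for *Chrnb1*, from -0.010 to 0.38 for *Agrn* and from -0.13 to 0.064 for *Lrp4*.

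Whether the replicate numbers pair the mice is not settled. Deviations from the group means correlated at 0.084, -0.21 and -0.0020 between libraries of the same number. Between libraries of different numbers they correlated at -0.22 to 0.19. With 3 libraries in a group these values cannot exclude a pairing. With the number as a replicate block, *Chrnb1* (adjusted p = 0.0387), *Chrnd* (0.0333), *Agrn* (0.0499) and *Lrp4* (0.0297) passed and *Rapsn* (0.101) did not, by edgeR. *Chrna2* passed (log2 fold change 1.64, adjusted p = 0.0429), and calls over all genes fell to 972 higher in labelled Ctrl and 927 higher in labelled cKO. The blocked *Chrng* to *Chrne* log2 ratio differed by -1.33 (exact permutation p = 0.5). Permuting within blocks allows fewer arrangements, so the smallest p of this test lies above the 0.1 of the unblocked test. *Chrng* had at most 32 counts in a library, so counting error is wide, and its share in labelled Ctrl replicate 1 still lay outside the counting intervals of labelled Ctrl replicates 2 and 3. With 3 mice in a group, the spread between mice limits every gene.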
